A study of Mus musculus with 32 samples.

Results

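The cytosolic ribosomal protein genes were the 83 of 55291 gene symbols in the deposited tables whose names follow the pattern of the large (Rpl, Rplp) and small (Rps, Rpsa) subunit proteins, leaving out pseudogenes whose names end in -ps. Of these, 51 belonged to the large subunit and 32 to the small subunit. In the GENCODE annotation 80 of the 83 were protein-coding genes, while Rps4l was a transcribed processed pseudogene and Rpl32l and Rpl6l were processed pseudogenes. The genes were followed in 32 poly(A)-enriched RNA-seq libraries of whole mouse brain on the C57BL/6J background. Wild-type brains (WT, Dhcr7+/+) were compared with knockout brains (KO, Dhcr7-/-) at 3 embryonic stages, E12.5, E14.5 and E16.5 (named by the day of gestation), and on postnatal day 0 (PND0), with 4 libraries in each of the 8 groups. Dhcr7 encodes the reductase that turns 7-dehydrocholesterol into cholesterol, and loss of its human counterpart causes Smith-Lemli-Opitz syndrome. The labels give no litter, and nothing beyond separate replicate numbers says that the libraries came from separate animals, so p-values measure the spread between these libraries.

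Each cytosolic ribosome is built from a large and a small subunit, whose proteins are needed in fixed proportion. The small subunit decodes the messenger RNA, and the large subunit forms the peptide bond. Rplp0, Rplp1 and Rplp2 form the stalk that recruits elongation factors, Rpsa is the laminin-receptor-related protein of the small subunit, and Rps6 is the phosphorylated target of S6 kinase. Messenger RNAs of ribosomal proteins are short and carry a terminal oligopyrimidine (TOP) tract, a C at the cap followed by further C or T bases, through which their translation responds to mTOR. In the developing brain, dividing progenitor cells have a high demand for new ribosomes.

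The starts of these genes are shown first, since the TOP tract is the sequence feature these transcripts are known for; most annotated starts did not show it in full. The RefSeq promoter table (GRCm38.p6) matched 61 of the 83 genes by symbol, with 73 annotated starts. Each line below gives 30 bases, 15 before the annotated start and 15 from the start on, and the capitals mark the longest run of C and T bases that reaches within 5 bases of the start. Rps6, Rps18 and Rps27 are shown as small subunit genes with the full TOP form. Rpl34 and Rpl37a are shown because they passed the test in newborn KO brains. Rpl39 and Rps26 are shown because they were among the most and the least changed genes of the WT course.
Rps6 (minus strand, chr4:86857353-86857382): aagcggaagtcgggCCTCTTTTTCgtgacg
Rps18 (minus strand, chr17:33955651-33955680): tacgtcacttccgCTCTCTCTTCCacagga
Rps27 (minus strand, chr3:90213634-90213663): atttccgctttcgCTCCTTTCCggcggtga
Rpl34 (minus strand, chr3:130730323-130730352): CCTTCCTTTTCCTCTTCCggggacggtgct
Rpl37a (plus strand, chr1:72711245-72711274): ttccgctcgccggTCTaaaaccgcgcatgc
Rpl39 (minus strand, chrX:37085208-37085237): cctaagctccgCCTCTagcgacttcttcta
Rps26 (minus strand, chr10:128626492-128626521): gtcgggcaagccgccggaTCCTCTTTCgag
The run of Rpl34 continues past the left end of its window. Another annotated start of Rpl34 (window chr3:130730384-130730413) is not shown. It had a run of 6 and an A at the start, so it lacked the full TOP form. A run of at least 8 such bases was found at 24 of the 73 starts (32.9%), against 9.72% of all 32851 promoters of the table. A C at the annotated start itself followed by 4 bases that are each C or T was found at 14 of the 73 starts (19.2%), against 2.51% of all promoters. These are matches of letters on the transcribed strand at annotated starts, and the starts in use in these brains were not measured. At PND0 the median log2 fold change of KO against WT was 0.26 over 23 genes with a run of 8 and 0.21 over 34 without, and at E16.5 it was -0.19 over 24 and -0.20 over 34. Over the WT stages the medians of genes with and without a run were 0.36 and 0.50 from E14.5 to E16.5 and -1.18 and -1.05 from E12.5 to PND0. These differences were not tested.

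Total counts ran from 13.9 M to 28.3 M per library, and a count of 0 allowed up to 0.106 to 0.216 CPM (counts scaled to a common library total with TMM factors), a limit that covers counting error only. Dhcr7 was lower in every KO library than in every WT library of its stage, with 11.7 to 26.6 CPM in KO and 58.8 to 103.8 CPM in WT. E12.5 KO replicate 1 stood apart. In it the annotated ribosomal RNA gene CT010467.1 took 5.64% of counts, against 0.191% to 0.376% in the other 7 libraries of the stage. The mean length of the transcripts behind its counts was 3627 nt, against 4120 to 4124 nt in the WT libraries of its stage. Each stage was deposited as a table of its own, so a difference between stages and a difference between tables cannot be told apart.

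The WT course alternated. Ribosomal protein transcripts took the largest share of the library at E12.5, less at E14.5, more again at E16.5 and least at PND0. Of all counts, large subunit genes took 1.96% ± 0.105 (SD, n = 4) in the E12.5 group, 1.25% ± 0.0557 in the E14.5 group, 1.74% ± 0.103 in the E16.5 group and 0.912% ± 0.0420 in the PND0 group. Small subunit genes took 1.44% ± 0.0771, 0.885% ± 0.0363, 1.23% ± 0.0771 and 0.647% ± 0.0249 in the same order. The ranges of the 4 stages did not overlap for the small subunit. For the large subunit the E12.5 range (1.86% to 2.09%) met that of E16.5 (1.66% to 1.89%), and the other ranges were apart. The alternation set E12.5 and E16.5 apart from E14.5 and PND0, and other measures divided the stages in the same way. The ribosomal RNA gene took at most 0.626% of counts in the E12.5 and E16.5 libraries other than E12.5 KO replicate 1 and E16.5 WT replicate 1, and at least 0.869% in every E14.5 and PND0 library. Of 44 ribosomal protein genes with expressed pseudogene copies, 13 had a higher percentage of their counts in copies at both E14.5 and PND0 than at both other stages in WT, and 27 a lower one. Whether the stages were prepared, sequenced or counted in batches that divide them this way is not given in the sources used here, so the alternation and such batches cannot be told apart. The large-to-small ratio of counts was 1.36 to 1.37 in the E12.5 WT libraries and 1.38 to 1.42 in those of the later stages.

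**Figure D1:**
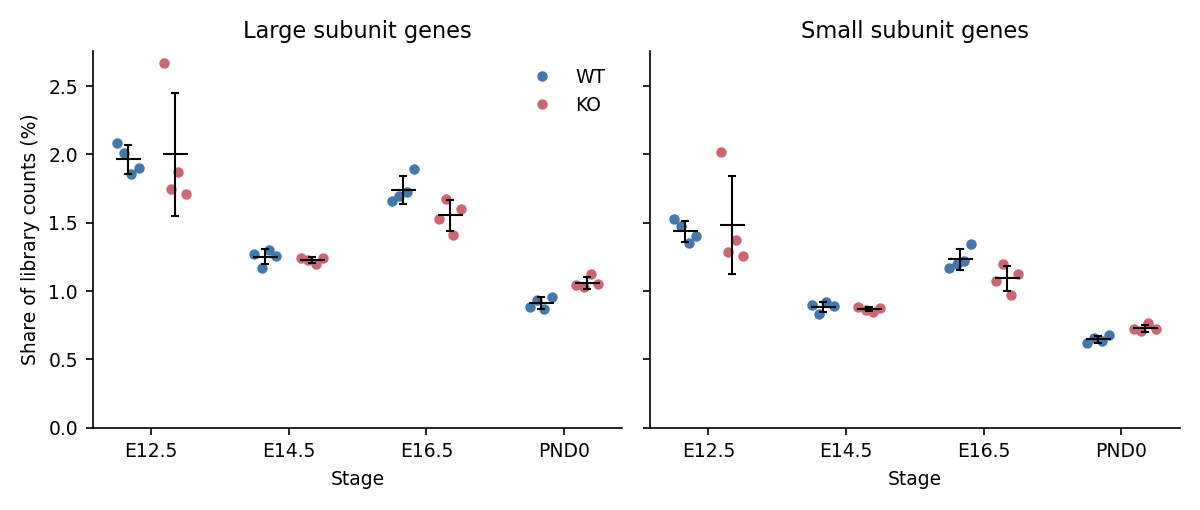
Share of library counts (%) taken by the 51 large and 32 small subunit genes, by stage, with WT libraries in blue and KO libraries in red; black marks are the mean ± SD of 4 libraries. E12.5 KO replicate 1 is the point at 2.67% (large) and 2.02% (small), and at PND0 all KO libraries lie above all WT libraries.

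Between E12.5 and E14.5 in WT brain, 76 of the 80 ribosomal protein genes tested fell and 1 rose (edgeR quasi-likelihood test, Benjamini-Hochberg adjusted p under 0.05), where 30.5% of all genes tested fell and 27.3% rose. The median log2 fold change was -0.65 for large and -0.71 for small subunit genes, against -0.03 for all genes. Between E14.5 and E16.5, 64 of 80 rose and 2 fell, where 29.3% of all genes rose and 28.2% fell, with medians of 0.45 and 0.46. Between E16.5 and PND0, 77 of 80 fell and 1 rose, where 27.2% fell and 26% rose, with medians of -0.90 and -0.93. Over the whole span from E12.5 to PND0, 77 of 79 fell and none rose, where 36.4% fell and 34.5% rose. The 2 that did not pass over the whole span were Rpl37a and Rps4l, with log2 fold changes of -0.11 and -0.06. These comparisons share libraries with their neighbours. Of the 83 genes, Rpl10l, Rpl3l and Rpl39l did not pass the filter on low counts in any comparison, and Rpl32l did not in the comparisons with 79 genes.

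**Figure D2:**
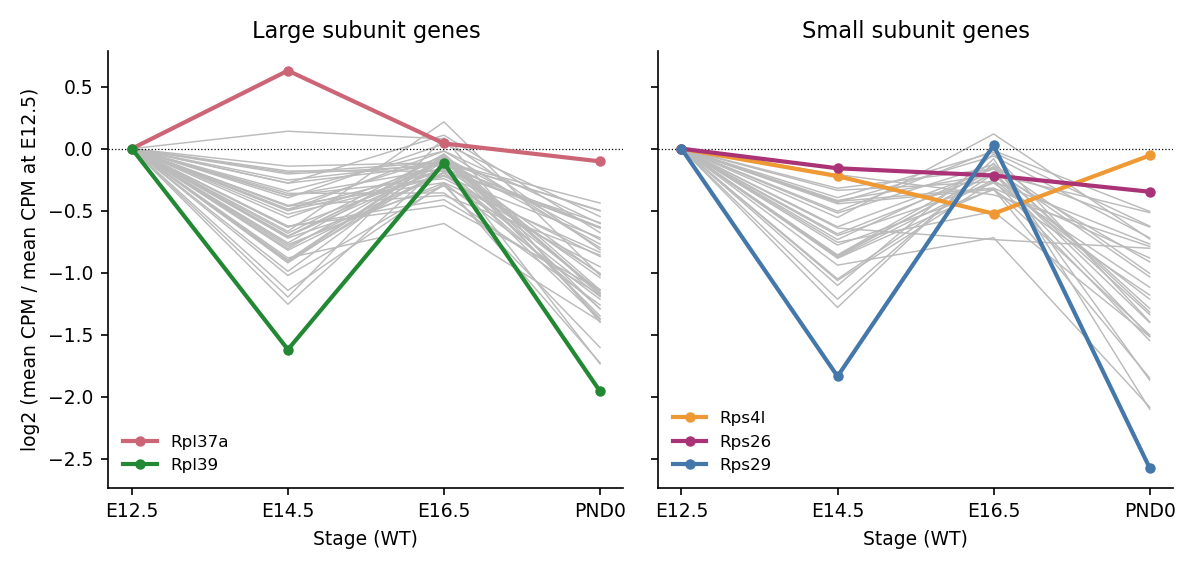
Course of each ribosomal protein gene with a WT mean of at least 1 CPM, as log2 of the WT mean CPM at each stage over the mean at E12.5 (n = 4 libraries a stage); grey lines are the other genes. Most lines dip at E14.5 and PND0, with Rps29 and Rpl39 deepest at E14.5 and Rps29 deepest at PND0. Rpl37a is highest at E14.5, and Rps26 stays within a narrow range.

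Rps29 (chr12:69157722-69159186), a zinc-binding protein of the head of the small subunit, had the largest changes among genes with at least 1 CPM. Its WT libraries read 350, 367, 384 and 362 CPM at E12.5, 99.1, 71.2, 132.5 and 107 CPM at E14.5, 375, 348, 377 and 392 CPM at E16.5, and 49.6, 73.4, 47.9 and 74.9 CPM at PND0. The E12.5 and E16.5 libraries thus stood apart from those of E14.5 and PND0. The log2 fold changes of the 3 steps were -1.85 ± 0.16 (SE), 1.87 ± 0.18 and -2.66 ± 0.14, with adjusted p of 3.64e-05, 9.6e-05 and 1.11e-07. Rpl39 (chrX:37082520-37085402), a short protein of the exit tunnel, went from 265.4 ± 12.3 CPM (SD, n = 4) to 86.4 ± 13.4, 245.2 ± 12.8 and 68.4 ± 5.81 CPM over the 4 stages. Rps27a (chr11:29545846-29548109), which is made as a fusion with ubiquitin, followed with 244 ± 18.3, 101 ± 12.9, 231 ± 28.5 and 56.9 ± 8.13 CPM. Rpl37, a zinc-binding large subunit protein, rose from 109 ± 13.5 to 264.8 ± 10.9 CPM between E14.5 and E16.5 (log2 fold change 1.29, adjusted p = 1.9e-08).

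A few genes departed from this course. Rpl37a (chr1:72711290-72713813), another zinc-binding protein of the large subunit, was the gene that rose from E12.5 to E14.5, from 42.2 ± 1.66 to 65.3 ± 5.90 CPM (log2 fold change 0.61 ± 0.07, adjusted p = 6.71e-05). It then fell to 43.5 ± 1.48 CPM at E16.5. Its 4 E14.5 WT libraries, at 58.0 to 70.8 CPM, lay above all WT libraries of the other stages. Rps4l (chr6:148354656-148355598) fell from 35.1 ± 3.25 to 28.5 ± 3.70 CPM between E14.5 and E16.5, with overlapping libraries, and rose to 39.4 ± 3.45 CPM at PND0 (log2 fold change 0.41, adjusted p = 0.00587). Rps26, which contacts messenger RNA at the exit channel, moved little, from 442 ± 8.39 CPM at E12.5 to 347 ± 7.30 CPM at PND0 (log2 fold change -0.35 ± 0.06, adjusted p = 0.000398). Its change from E14.5 to E16.5 did not pass (log2 fold change -0.05, adjusted p = 0.456).

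The least changed of the genes that passed were otherwise Rpl6, with a log2 fold change of -0.20 from E12.5 to E14.5, Rpl5, a 5S RNA-binding protein, with 0.14 from E14.5 to E16.5, and Rpsa, with -0.37 from E16.5 to PND0. Over the whole span, Rpl10, which takes part in joining the subunits, had -0.44, and Rpl6l had -0.50. The stalk genes all fell over the whole span: the log2 fold change from E12.5 to PND0 was -0.64 ± 0.07 for Rplp0, -1.17 ± 0.09 for Rplp1 and -1.40 ± 0.12 for Rplp2. Rpsa went from 1056 to 1165 CPM in the 4 E12.5 libraries to 735 to 820 CPM in the 4 PND0 libraries.

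Transcript length moved with these steps across all genes. The principal transcripts of the ribosomal protein genes had a median of 878 nt, against 2785 to 2858 nt for all genes tested in a comparison. Other protein-coding genes in the length range of the ribosomal protein genes (394 to 2045 or 2051 nt, by comparison) had medians of -0.20, 0.15 and -0.24 over the 3 WT steps. With per-library offsets that remove the trend with the length of the longest transcript, the median over all ribosomal protein genes went from -0.67 to -0.48 for the first step, from 0.45 to 0.33 in the next and from -0.93 to -0.63 in the last. With offsets by the principal transcript, chosen after seeing the data, the medians were -0.41, 0.23 and -0.50. With the offsets by the longest transcript 64 of 80 genes fell and 1 rose in the first step, where 30.2% of all genes fell and 27% rose. In the next step 51 rose and 12 fell, where 29% rose and 28.1% fell, and in the last 68 fell and 4 rose, where 26.3% fell and 25.6% rose. Rps26 changed sign with either kind of offset in the first and last steps and over the whole span, and its values are given with the processing alternatives.

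Other gene lists shared this course in part. Of 77 mitochondrial ribosomal protein genes, 53 fell, then 39 rose and 6 fell, then 59 fell and 1 rose, with medians of -0.36, 0.19 and -0.51. Of 37 complex I subunit genes, 30 fell and 3 rose, then 31 rose and 1 fell, then 30 fell, with medians of -0.40, 0.56 and -0.63. Elongation factors and other TOP transcripts did not return at E16.5: of 16, 10 fell and 2 rose, then 8 fell and 2 rose, then 11 fell and 3 rose. Ribosome biogenesis factors (28 genes) had medians of -0.40, 0.03 and -0.28. The 7 markers of dividing cells fell in each step, and their summed level went from 1815 ± 118 CPM at E12.5 to 942 ± 43.8, 575 ± 95.4 and 204 ± 22.2 CPM, with no return at E16.5. In whole tissue, fewer cells of a type and less RNA per cell cannot be told apart, and the part of cell composition in the course of the ribosomal protein genes was not tested.

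In their level per kilobase of the longest transcript, averaged over the 16 WT libraries, the highest large subunit genes were Rplp1 (956 CPM per kb), Rpl41 (798) and Rplp0 (721), and the highest small subunit genes were Rps15 (578), Rps4x (505) and Rps2 (500.1). The order differed between stages. Rplp1 was first of the large subunit genes at each WT stage, with 1303 ± 48.1 CPM per kb at E12.5 and 582 ± 60.9 at PND0. Of the small subunit genes, Rps15 was first at E12.5 (820 ± 15.1 CPM per kb), Rps4x at E14.5 (485 ± 15.6, with Rps15 at 479 ± 31.8), Rps29 at E16.5 (809 ± 40.2) and Rps2 at PND0 (407 ± 26.8). The first and the next small subunit gene differed by less than the larger of their SDs at E12.5, E14.5 and PND0. Next were Rps29 at E12.5 (793 ± 30.8) and Rpsa at PND0 (405 ± 19.8). With the principal transcript in place of the longest, Rplp1, Rpl41, Rplp0 and Rps15 held their places, and Rps4x and Rps2 dropped to places 11 and 12 of the small subunit genes. At the other end, Rpl10l had no count in any of the 32 libraries, and Rpl3l, Rpl39l and Rpl32l averaged 0.0854, 0.163 and 0.572 CPM over the WT libraries. Rpl3, the counterpart of Rpl3l, read 797 ± 57.1 CPM at E12.5 and 485 ± 9.20 CPM at PND0. Rpl39l, the counterpart of Rpl39, had 0.418 to 0.572 CPM in the E12.5 WT libraries and no count in the PND0 WT libraries. Rps27 and Rps27l both fell over the whole span. Rps27l went from 56.6 ± 4.94 to 13.4 ± 1.21 CPM (log2 fold change -2.09 ± 0.10, adjusted p = 6.17e-08) and Rps27 from 253 ± 11.3 to 104 ± 17.9 CPM (-1.29 ± 0.11, adjusted p = 2.25e-06). Whether these 2 changes differ was not tested. Rps4x had -0.63 and its counterpart Rps4l -0.06, and Rpl6l had -0.50.

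Processed pseudogenes make the counts of some of these genes uncertain, since near-identical copies can share reads and the counting settings for such reads are not given in the sources used here. Of the 83 genes, 62 had copies named after them with -ps, 317 copies in all. The full list of 319 ribosomal protein pseudogenes named with -ps took 0.0628% to 0.131% of library counts. For 44 genes the summed copies reached 1 CPM in a WT stage. Between E12.5 and E14.5 the summed copies of 31 of these genes were lower in all WT libraries, and those of 8 were higher in all, where 26.9% of all genes tested were lower and 26.7% higher without overlap. The copies of Rps7 read 45.2 ± 2.31, 104 ± 1.66, 49.5 ± 3.04 and 95.3 ± 3.78 CPM over the 4 WT stages, while Rps7 itself read 522 ± 4.67, 355 ± 11.3, 567 ± 41.8 and 315 ± 13.4 CPM. The copies of Rpl17 and Rpl31 were also highest where the gene was low at E14.5, whereas those of Rpl39 went with the gene. Rps10 was the only gene with more counts in its -ps copies than in itself at all 4 WT stages (89.4% to 94.6% of the sum). Copies under other names were not counted. Rpl24, which had no -ps copy, averaged 1.96 CPM over the WT libraries, against a median of 264.6 CPM for large subunit genes. The reason for its low level was not tested. Adding the copies to their gene left 75 of 80 genes lower and 1 higher in the first step. It left 65 higher and 3 lower in the next, and 77 lower and 1 higher in the last. In the main fits 30.5% of all genes fell in the first step, 29.3% rose in the next and 27.2% fell in the last.

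**Figure D3:**
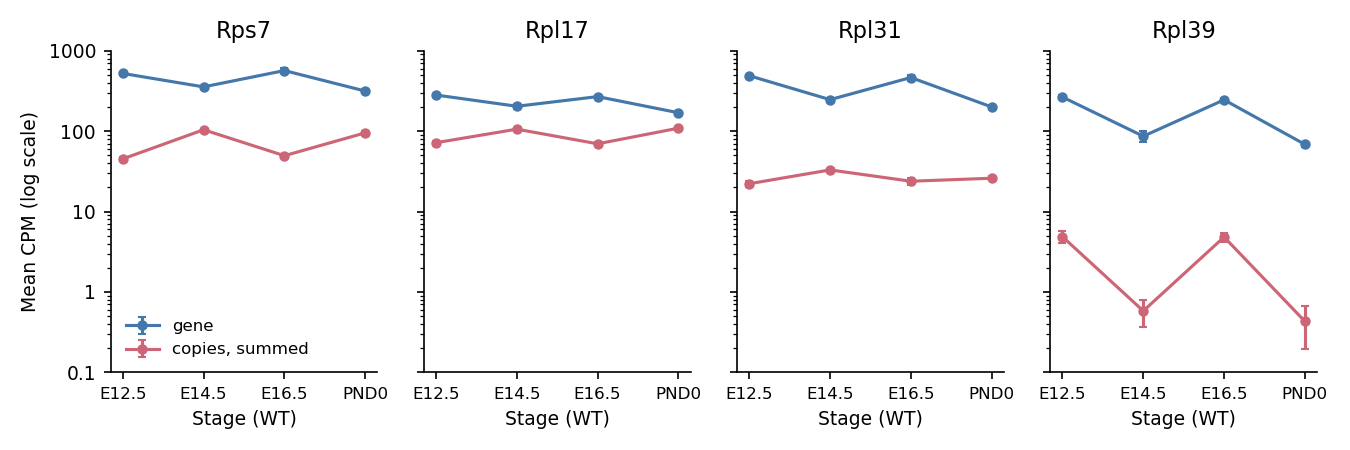
Mean CPM ± SD (log scale, n = 4 WT libraries a stage) of 4 ribosomal protein genes in blue and of their summed -ps copies in red. The copies of Rps7, Rpl17 and Rpl31 are higher at E14.5 than at E12.5 while the gene is lower, and those of Rpl39 follow the gene.

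In KO against WT, the ribosomal protein genes sat near WT at E12.5 and E14.5, lower than WT at E16.5 and higher than WT at PND0, with single genes past the edgeR threshold at PND0. The E12.5 position rested on KO replicate 1, without which the medians were -0.12 for large and -0.14 for small subunit genes. The share of counts taken by all 83 genes was 2.83% to 3.24% in E16.5 WT and 2.39% to 2.87% in E16.5 KO. It was 1.502% to 1.63% in PND0 WT and 1.74% to 1.89% in PND0 KO. KO and WT libraries overlapped in this share at E16.5 and did not at PND0. Of the 79 genes tested at both of these stages, 77 had a negative log2 fold change at E16.5 and a positive one at PND0 (97.5%, against 26.5% of all genes). Among other protein-coding genes of their length range with at least 100 CPM, 269 of 371 were negative at E16.5. At PND0, 291 of 337 such genes were positive.

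**Figure D4:**
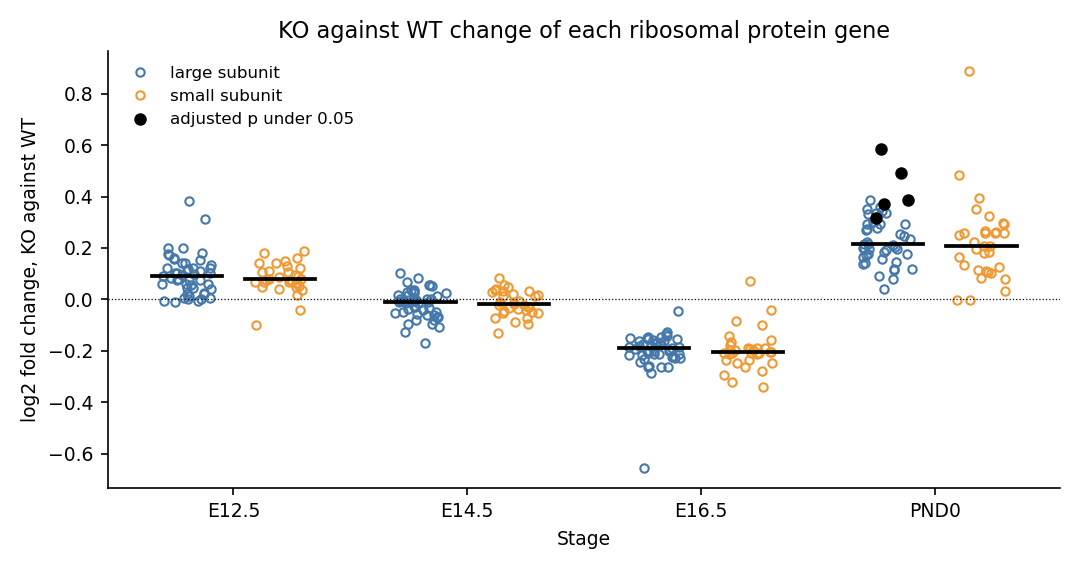
Log2 fold change of KO against WT for each ribosomal protein gene tested (79 or 80 a stage), with large subunit genes in blue and small subunit genes in orange; black lines are medians and filled points passed at an adjusted p under 0.05. The large and small subunit medians are 0.09 and 0.08 in E12.5 brains, -0.01 and -0.02 in E14.5 brains, -0.19 and -0.20 in E16.5 brains, and 0.22 and 0.21 in PND0 brains.

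At PND0, 5 of 79 genes rose in KO, all of the large subunit and none fell, where 0.402% of all genes tested rose and 1.03% fell (edgeR, adjusted p). They were Rpl37a, Rpl21, Rplp1, Rpl34 and Rpl23a. Rpl37a read 38.2, 43.1, 32.1 and 43.9 CPM in WT and in KO 58.7, 57.5, 64.5 and 55.1 CPM, with no overlap between groups (log2 difference 0.59 ± 0.11 SE, adjusted p = 0.0197). Rpl23a (chr11:78180932-78183584), a protein at the mouth of the exit tunnel, read 83.0, 113, 77.8 and 109 CPM in WT and 135, 141, 139 and 122 CPM in KO (0.49 ± 0.11, adjusted p = 0.0475). Its WT libraries fell into a lower and a higher pair, and all KO libraries lay above both. Rplp1 (chr9:61913284-61914542), the stalk protein, read 279, 330, 258 and 294 CPM in WT and 382, 400, 401 and 332 CPM in KO (0.39 ± 0.09, adjusted p = 0.0403). The highest WT library of Rplp1 nearly met the lowest KO library. Rpl21 (chr5:146832890-146837032) went from 97.1 ± 6.24 to 125.5 ± 8.58 CPM (SD, n = 4; 0.37 ± 0.08, adjusted p = 0.034), and Rpl34 (chr3:130726831-130730398) from 136.5 ± 6.50 to 169.9 ± 7.58 CPM (0.32 ± 0.07, adjusted p = 0.0431).

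The other genes at PND0 lay on the same side. Of the 79, 77 had a positive log2 fold change, 57 (72.2%, against 18% of all genes) had an unadjusted p under 0.05, and in 47 the KO libraries all lay above the WT libraries, where 5.43% of all genes were so. Among 337 other protein-coding genes of the same length range with at least 100 CPM, 94 were higher in KO without overlap. The 2 genes with no increase were Rps4l (39.4 ± 3.45 CPM in WT, 39.2 ± 8.91 in KO) and Rps15a (263 ± 24.3 and 263 ± 17.4). DESeq2 called 24 of 78 genes higher, where it called 7.24% of all genes in either direction. Leaving out WT replicate 1, WT replicate 3 or KO replicate 1 left no gene past the threshold, leaving out KO replicate 2 or KO replicate 3 left 1, leaving out WT replicate 2 left 3, and leaving out WT replicate 4 gave 7. In these fits 0.197% to 1.47% of all genes were called.

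Short transcripts as a whole had a median above 0 in PND0 KO. Other protein-coding genes in the length range of the ribosomal protein genes had a median log2 fold change of 0.12, and those with at least 100 CPM one of 0.14, against 0.22 for the ribosomal protein genes. The mean transcript length behind the counts was 4297 to 4380 nt in the PND0 WT libraries and 4099 to 4228 nt in the KO libraries, without overlap. With length offsets the median of the ribosomal protein genes was 0.10, 62 of 79 were above 0 and none passed the threshold, and the background of all genes called was 0.264%. Set against the median of other genes in the same length bin, 53 of 79 lay above and 26 below, with a median difference of 0.05. With the share of the ribosomal RNA gene as a covariate none passed either, and 2 of all 17420 genes did. That share was 1.799% to 2.785% in the PND0 WT libraries and 1.157% to 2.088% in the PND0 KO libraries, with overlap. The covariate thus went in part with genotype, so this fit cannot fully tell the ribosomal RNA share and the KO effect apart. Red blood cell transcripts leaned the same way as the ribosomal protein genes. All 6 globin and erythroid genes tested had positive fold changes, but none passed the threshold and in each the groups overlapped. Their summed level was 200.2 to 268 CPM in WT and 234 to 2295 CPM in KO. Choroid plexus markers were above 0 as well (5 of 5, median 0.18), with a summed level of 328 to 619 CPM in WT and 614 to 998.5 CPM in KO, most of it from Ttr. The part of either cell type in the result was not tested.

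At E16.5 no gene passed (edgeR, 0 of 80, where 0.0462% of all genes passed), while 66 of 80 (82.5%, against 11.5% of all genes) had an unadjusted p under 0.05. Of the 80, 79 were below 0, against 50% of all genes. In 25 genes the KO libraries all lay below the WT libraries, where 3.58% of all genes were so. DESeq2 called 10 of 73 lower, where it called 2.35% of all genes in either direction. EdgeR without a filter on low counts called 13 of 82, where it called 0.678% of all genes. The smallest p was that of Rpl30, a large subunit protein that in yeast also binds its own transcript. Rpl30 read 225, 214, 214 and 230 CPM in WT and 184, 189, 171 and 196 CPM in KO, with no overlap between groups (log2 fold change -0.26 ± 0.05, adjusted p = 0.181). Rpl37 had 264.8 ± 10.9 CPM in WT and 218 ± 22.5 in KO (-0.29, adjusted p = 0.24), and Rps6 had 431 ± 33.0 and 368 ± 14.3 CPM (-0.23, adjusted p = 0.261). Rps4l was the gene above 0, at 28.5 ± 3.70 CPM in WT and 30.03 ± 1.39 in KO.

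Other short transcripts had medians closer to 0 at this stage. Other protein-coding genes of their length range had a median of -0.05, and those with at least 100 CPM one of -0.07, with 55 of 371 lower in KO without overlap. The ribosomal protein genes had -0.20, or -0.13 with length offsets. Set against the median of other genes in the same length bin, 76 of 80 lay below and 4 above, with a median difference of -0.11. Dividing-cell markers (7 of 7 below 0, summed level 482 to 661 CPM in WT and 412 to 502 CPM in KO) and red blood cell markers (6 of 6 below 0, 668 to 1430 CPM in WT and 534 to 773 CPM in KO) were lower as well, and their part in the result was not tested. The ribosomal RNA gene took 3.75% of counts in WT replicate 1 and 0.356% to 0.626% in the other 7 libraries of the stage.

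**Figure D5:**
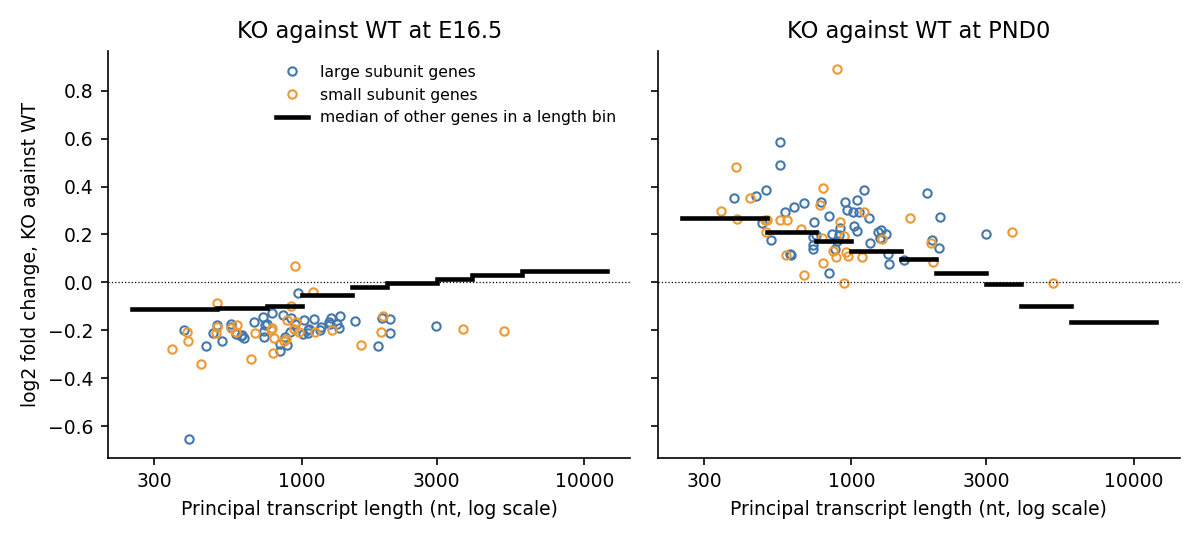
Log2 fold change of KO against WT plotted against principal transcript length (nt, log scale) for large (blue) and small (orange) subunit genes at E16.5 and PND0; black bars are medians of other protein-coding genes in length bins, the first from 0 to 500 nt and the last open at 6000 nt. At E16.5, 76 of 80 points lie below their bar, and at PND0, 53 of 79 lie above it.

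The other lists of translation and mitochondrial genes had medians closer to 0. Of 16 elongation factor and other TOP transcripts, 13 were below 0 at E16.5 and 16 above 0 at PND0, with medians of -0.12 and 0.14 and none past the threshold. Mitochondrial ribosomal protein genes had medians of -0.10 and 0.09, complex I subunit genes -0.15 and 0.19, translation initiation factors -0.08 and 0.07, and ribosome biogenesis factors -0.04 and 0.02. None of the genes in these 4 lists passed at either stage. The 12 targets of p53, a pathway known to respond to impaired ribosome assembly, had medians of -0.0045 and -0.01, with none past the threshold.

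At E12.5 no gene passed (edgeR, 0 of 80, where 0.0177% of all genes passed). None had an unadjusted p under 0.05, against 4.7% of all genes. DESeq2 called none of 81, where it called 0.129% of all genes. The genes leaned above 0 (75 of 80, against 50.7% of all genes), and this rested on KO replicate 1. It also went with transcript length: with length offsets 41 were above 0 and 39 below, with a median of 0.01, and 380 of 434 other short genes with at least 100 CPM were above 0, with a median of 0.12. Rps9, a small subunit protein, read 747, 713, 658 and 731 CPM in WT and 1231, 704, 725 and 632 CPM in KO. Rps27a and Rpl13a (adjusted p = 0.899 and 0.875) showed the same single high library, with 401 and 61.3 CPM in KO replicate 1. Rpl32l had 0.879 ± 0.278 CPM in WT and 1.19 ± 0.184 CPM in KO. Without KO replicate 1 the medians changed from 0.09 to -0.12 for large and from 0.08 to -0.14 for small subunit genes. None passed, where 0.0232% of all genes did.

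At E14.5 edgeR's common coefficient of variation was the lowest of the 4 stages (6.25%). No gene passed (edgeR, 0 of 79, where 0.527% of all genes passed), and 7 (8.86%, against 8.73% of all genes) had an unadjusted p under 0.05. DESeq2 called none of 77, where it called 1.13% of all genes. The medians were -0.01 for large and -0.02 for small subunit genes, with 30 genes above 0 and 49 below. Rps18 read 286, 254.5, 291 and 279 CPM in WT and in KO 263, 254, 242 and 256 CPM (log2 fold change -0.13 ± 0.04, adjusted p = 0.113). Its lowest WT library overlapped with KO. Rplp1 (346 ± 19.6 CPM in WT, 321 ± 9.33 in KO), Rpl27 (198 ± 8.50 and 185 ± 7.21) and Rps9 (422 ± 21.8 and 395 ± 11.3) came next, with adjusted p of 0.241, 0.37 and 0.329. Without WT replicate 2, the lowest WT library for Rps18, 3 genes passed, where 0.857% of all genes did.

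Whether the KO effect changed with stage was tested in 1 fit of all 32 libraries (F test of 3 contrasts). Each contrast set the KO effect of a later stage against that of E12.5. No ribosomal protein gene passed (edgeR, 0 of 80, where 0.0256% of all genes passed), the smallest adjusted p being 0.14, and 37 of 80 (46.2%) had an unadjusted p under 0.05, against 13.5% of all genes. DESeq2 called 3 of 79, where it called 2.22% of all genes. Without E12.5 KO replicate 1, the library that stood apart, 44 of 80 passed, where 3.98% of all genes did. Of the 44, 31 were large and 13 small subunit genes, and in all 44 the KO effect was higher at PND0 than at E16.5. The median difference between these 2 effects was 0.39 over the 80 genes, against -0.01 over all genes. Rpl23a had the smallest p, with a KO effect at PND0 that was 0.66 above that at E16.5 (adjusted p = 0.0017), followed by Rplp1 (0.56, adjusted p = 0.00182) and Rpl37a (0.76, adjusted p = 0.00312). The KO effects of these genes at PND0 were also 0.61, 0.56 and 0.59 above those at E12.5. The p-values belong to the F test over all stages, and the difference between PND0 and E16.5 alone was not tested. With length offsets and without the same library, a setting chosen after seeing the data, 8 of 80 passed, where 1.05% of all genes did. In the fit of all libraries Rpl23a, Rpl37a, Rps27a and Rps10 had the smallest p of their subunits, with differences between PND0 and E16.5 of 0.66, 0.76, 0.68 and 1.04. Rps10 was low, at 1.70 to 5.21 CPM in PND0 WT and 3.43 to 7.15 CPM in PND0 KO, and had more counts in its copies. With copies added to their gene, the highest log2 fold change at PND0 over all ribosomal protein genes was 0.59, against 0.89 without.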

How the data were processed

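The authors deposited 1 table per stage of raw counts per gene symbol, with 8 libraries each, per the labels. HISAT2, SAMtools, featureCounts, DESeq2 and the build mm10 are named in the submitters' processing notes. The annotation, the strand setting and the handling of reads that match several places are not given in the sources used here. RNA was enriched for poly(A) transcripts, per the labels' protocols.

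Each KO comparison and WT step was fitted on its 8 libraries with edgeR 4.0.16 in R 4.3.3 (TMM, filterByExpr with a minimum count of 10 and a minimum total of 15, robust quasi-likelihood F test). P-values were adjusted over all genes tested with the Benjamini-Hochberg method, at 0.05. The change of the KO effect with stage was tested on all 32 libraries. SE is that of the log2 fold change. CPM uses TMM over all 32 libraries. Lengths and positions come from GENCODE M21 (GRCm38), in which 53186 symbols matched by name and 405 through a synonym. Length offsets were a lowess fit (span 0.3) of each library's log deviations on log2 transcript length. The members and lists were chosen with earlier results of these data known. Named genes were those past the threshold in a KO comparison (otherwise 2 per subunit with the smallest p), the 3 highest and 3 lowest per WT step, the 3 highest per length and subunit, those ending in l or x with their counterparts, those under 1 CPM, and the stalk genes with Rpsa. A gene that this rule names is not reported here. On counts simulated for KO against WT at PND0 (17115 genes), edgeR recovered 60% of 100 genes changed 1.5-fold and 87% of 100 changed 2-fold. It made 13 false calls among the unchanged genes. Same-numbered libraries did not deviate together in every pair (correlations from -0.27 to 0.333), so replicate numbers were not treated as pairs. No 2 libraries of a group were copies (chi-square per degree of freedom from 2.9 to 115 over 48 pairs). Alternatives were RLE factors, TMM without these genes, no filter, DESeq2 1.42.0, a replicate block, all libraries in 1 fit, length offsets, ribosomal RNA and sex-gene covariates, and each library left out. Chosen after seeing the data were offsets by principal transcript, -ps copies added to their gene, and length offsets with E12.5 KO replicate 1 left out.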

Additional observations from a re-analysis of the deposited data

Results flagged for a closer look

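Of 84 groups of 4 libraries examined for named genes and for the 2 subunit shares, 6 (7.14%) held a library far from the other 3, where chance gives about 1 in 20. The E12.5 KO group gave 4 of them, each through replicate 1. In that library large subunit genes took 2.67% of counts, against 1.71% to 1.87% in the other 3, and small subunit genes 2.02%, against 1.25% to 1.37%. Rps9 read 1231 CPM, against 632 to 725 CPM, and Rpl32l 1.47 CPM, against 1.08 to 1.13 CPM. At E16.5, WT replicate 3 had 188 CPM of Rps27a, against 243 to 247 CPM, and WT replicate 4 had 409 CPM of Rps26, against 368 to 373 CPM.

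At 2 stages the KO effect took opposite directions in whole groups of libraries: 19 genes were lower in every KO library than in every WT library at E16.5 and higher in every KO library than in every WT library at PND0. That is 24.1% of the 79 tested at both stages, against 0.483% of 16559 genes of all lengths. Other short protein-coding genes with at least 100 CPM moved too, with 55 of 371 lower at E16.5 without overlap. At PND0, 94 of 337 such genes were higher without overlap. How many of these short genes did both was not counted. The 19 ribosomal protein genes included Rpl30, Rps6, Rpl34 and Rpl23a. The test of any change of the KO effect over the 4 stages passed for none of the ribosomal protein genes. Without E12.5 KO replicate 1 it passed for 44 of 80, where 3.98% of all genes did. That test does not single out E16.5 and PND0, and the difference between these 2 stages was not tested.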

How the results depend on the processing

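Counts of ribosomal protein genes past the threshold moved as follows. Percentages in brackets are the share of all genes called in the same fit. At PND0 the count of 5 became 25 with no filter on low counts (3.25%) and 24 with DESeq2 (7.24%). It was 3 with all 32 libraries in 1 fit (6.17%) and 3 with the sex-gene covariate (1.2%). It was 0 with the ribosomal RNA covariate (0.0115%), which went in part with genotype. It was also 0 with length offsets by the longest (0.264%) or the principal transcript (0.276%). The replicate block with length offsets also gave 0 (0.459%), and the replicate block alone gave 4 (2.04%). At E16.5 the count of 0 became 13 with no filter (0.678%) and 10 with DESeq2 (2.35%). At E14.5 it became 1 with the replicate block and length offsets (0.97%). For the change with stage it became 3 with DESeq2 (2.22%), 44 without E12.5 KO replicate 1 (3.98%) and 8 when length offsets were added to that (1.05%). Leaving out 1 library gave 0 to 3 at E14.5 (3 without WT replicate 2, 0.857%) and 0 to 7 at PND0 (7 without WT replicate 4, 1.04%). It gave 0 to 44 for the change with stage, and 0 at E12.5 and E16.5. The replicate block moved no count by over 1.5 times, and the numbers are only shared, not pairs by design. The cause of these moves was not tested. At E16.5 DESeq2 adjusted over 6382 genes, edgeR over 17328 and edgeR without the filter over 34379. At PND0 these numbers were 12726, 17420 and 33525.

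In the WT comparisons the counts of calls in both directions together stayed within 1.5 times under every alternative run, from 64 to 78 of 80 for the first step, 54 to 69 for the next and 68 to 79 for the last, and from 71 to 79 over the whole span. In the main fits 57.8%, 57.5%, 53.2% and 70.9% of all genes were called in either direction, in the same order. By direction, length offsets moved the genes that fell in the middle step from 2 to 12 (13 by principal transcript) and those that rose in the last from 1 to 4. Single genes changed sign. Rps26 went to 0.082 with length offsets, 0.081 with the block added and 0.12 by principal transcript for the first step, to 0.27, 0.27 and 0.37 for the last, and to 0.099, 0.099 and 0.20 over the whole span, where Rpl10 went to 0.0062 by principal transcript. At E12.5, Rps9 went to -0.0050 with the ribosomal RNA covariate. Leaving out 1 library gave -0.088 to 0.28 for Rps9 and -0.031 to 0.27 for Rps27a, both lowest without KO replicate 1.

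In the counts simulated for PND0, 60% of 1.5-fold changes were found. The changed genes were drawn at random from genes of all but the lowest levels, so the rate for ribosomal protein genes was not measured. Most ribosomal protein genes had differences below 1.5-fold. Stage and deposited table cannot be told apart, so the WT course rests on 4 separate tables. Reads shared with pseudogene copies limit single-gene levels such as those of Rps10.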
